A study of Danio rerio with 24 samples.

Results

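The Hox genes of paralogue group 13 were followed in zebrafish embryos that received either TP-0903 or its solvent DMSO. The members were chosen by gene name. Of the 6 named genes, hoxa13b (ENSDARG00000036254), hoxc13a (ENSDARG00000070353), hoxc13b (ENSDARG00000090023) and hoxd13a (ENSDARG00000059256) are listed at each of the 3 times, 4 genes among 16361 listed at 1 h and at 4 h and 18984 listed at 8 h. The genes hoxa13a and hoxb13a were not analysed here. TP-0903 is a small-molecule kinase inhibitor that the study screened for its effect on neural crest cells, and the sequencing asked how transcription changes after treatment. RNA-Seq counts were made from 24 libraries, with 4 replicate libraries in each of 6 groups.

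The embryos of all groups carried the reporter Tg(snail1b:GFP), in which a promoter fragment of snai1b drives GFP, and each library was made from 35 whole embryos. Treatment began at 13 hpf (8 somites). The groups were TP-0903 for 1 h and DMSO for 1 h, collected at 14 hpf (10 somites), TP-0903 for 4 h and DMSO for 4 h, collected at 17 hpf (16 somites), and TP-0903 for 8 h and DMSO for 8 h, labelled 19.5 hpf (21 somites). The label of the last pair is earlier than 8 h after 13 hpf. The study calls the libraries biological replicates. Since the whole embryo was sampled, fewer cells of a type and less RNA per cell cannot be told apart.

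Hox genes encode homeodomain transcription factors that lie in clusters, and within a cluster their order matches the order in which they are switched on in time and along the body axis. Group 13 lies at the end that is used last and most posteriorly, in the tailbud, the hindgut and the fins or limbs. In mouse and chick, Hox13 proteins are known to slow axis extension, and retinoic acid, which is broken down in the tailbud by Cyp26a1, favours anterior over posterior Hox genes. In zebrafish, hoxa13a, hoxa13b and hoxd13a are known for their part in fin development. The genes hoxc13a and hoxc13b are the paired copies that the teleost genome duplication left of the ancestral Hoxc13, a gene needed for hair and nails in mouse. In mouse, Hoxb13 limits the length of the tail.

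All members were low. Total counts on genes ran between 3879310 and 10582470 per library, and the summed count of the 4 members ran between 0 and 112. Values are given as counts or as CPM, counts scaled to 1 common library total, normalized by the TMM method. At each time the treatments were compared with edgeR's quasi-likelihood test, with Benjamini-Hochberg adjustment over all genes tested and a threshold of 0.05. Each log2 fold change is TP-0903 over DMSO unless times are compared, and SE is its standard error. A filter on low counts left hoxa13b at 1 h, hoxa13b and hoxd13a at 4 h and no member at 8 h, so the members it removed were also fitted without it. A member that passes this filter may do so only through the group in which it is high. At 1 h, TP-0903 replicate 3 and DMSO replicate 4 stood apart from the other libraries, with 211 and 206 CPM of msgn1, a gene of the presomitic mesoderm, against 72.2 to 94.9 CPM in the other 6. The summed level of 6 trunk muscle markers was about the same in TP-0903 replicate 1 (298.7 CPM) as in these 2 libraries (300.04 and 318 CPM), against 138 to 181 CPM in the other 5. At 8 h, DMSO replicate 3 stood apart in posterior genes. The fold differences and calls of the members against DMSO at 8 h are given with and without it.

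**Figure D1:**
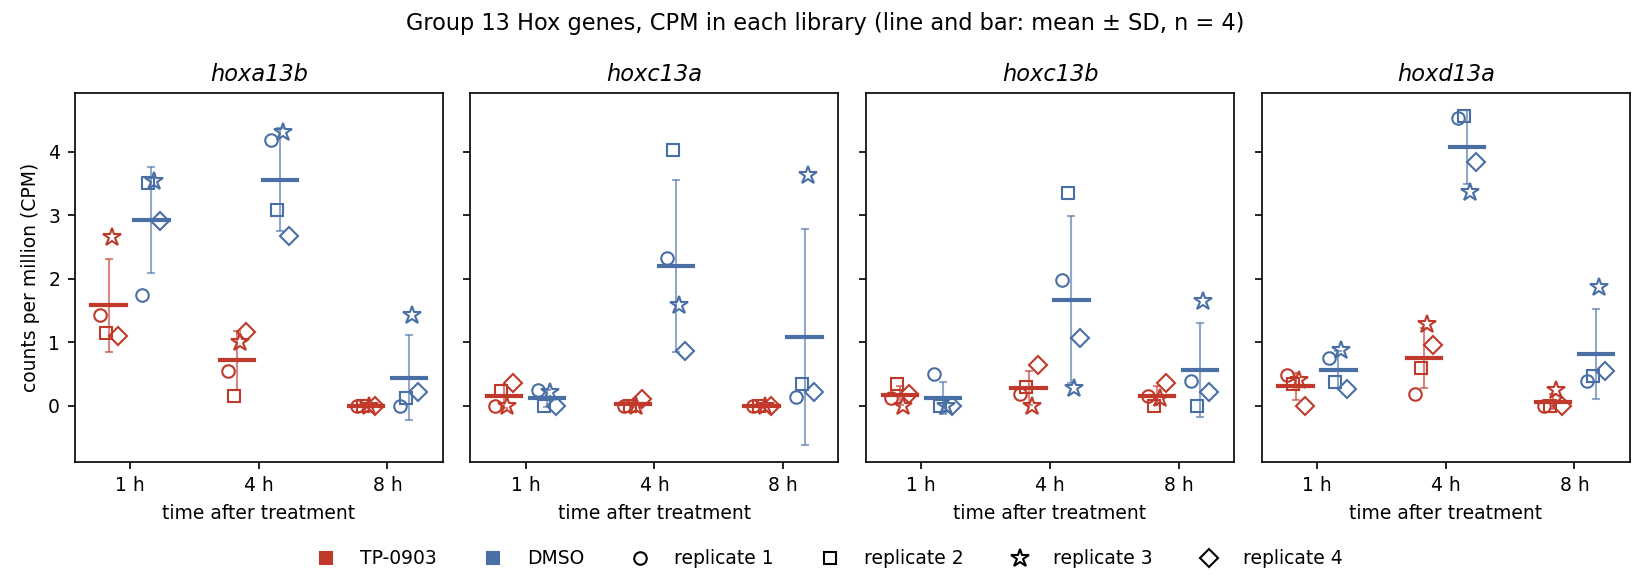
The 4 panels plot CPM (linear axis) of hoxa13b, hoxc13a, hoxc13b and hoxd13a in each library at 1, 4 and 8 h of treatment, TP-0903 in red left of DMSO in blue, with a symbol for each replicate, the mean as a line and the SD as a bar (n = 4). In each panel the mean of the DMSO libraries is highest at 4 h, although single libraries of different times overlap. No TP-0903 library exceeds 1.28 CPM at 4 h, and at 8 h DMSO replicate 3, the star, lies above the other libraries in all 4 panels.

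After 1 h, hoxa13b was the member with the highest level, and no difference between TP-0903 and DMSO passed the test. The TP-0903 libraries held 12, 10, 26 and 6 counts of hoxa13b in replicates 1 to 4, or 1.43, 1.15, 2.65 and 1.09 CPM. The DMSO libraries held 7, 28, 16 and 11 counts, or 1.75, 3.50, 3.53 and 2.91 CPM. The groups overlapped, because TP-0903 replicate 3 lay above DMSO replicate 1. The mean was 1.58 ± 0.73 CPM with TP-0903 and 2.92 ± 0.83 CPM with DMSO (SD, n = 4 each).

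At 1 h hoxa13b had a log2 fold change of -0.87 (SE 0.36, adjusted p = 1.00 by edgeR), with an unadjusted p under 0.05. Of 15530 genes tested at 1 h, 0% passed the threshold by edgeR, and 214 had an unadjusted p under 0.05. The highest log2 fold change of any gene at 1 h, 2.81, was not called either. A missing call at 1 h therefore does not show that an effect was absent. Without TP-0903 replicate 1 the log2 fold change was -0.81 (adjusted p = 1.00), without TP-0903 replicate 3 it was -1.26 (adjusted p = 1.00), and without DMSO replicate 4 it was -0.87 (adjusted p = 0.775). No member had every TP-0903 library below every DMSO library at 1 h, as 0.715% of all 16361 genes did. An exact two-sided permutation test of the mean CPM of hoxa13b gave p = 0.0571, where 4 libraries against 4 can reach 0.0286.

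The other members were near the limit of detection at 1 h. Over 4 libraries each, hoxc13a had 4 counts with TP-0903 and 2 counts with DMSO, and hoxc13b had 5 counts with TP-0903 and 2 counts with DMSO. For hoxd13a the sum was 11 counts with TP-0903 and 11 counts with DMSO, where the TP-0903 libraries were the deeper ones. By library, hoxd13a had 4, 3, 4 and 0 counts with TP-0903 and 3, 3, 4 and 1 counts with DMSO, and an exact two-sided permutation test of its mean CPM gave p = 0.257, with a larger p for hoxc13a and hoxc13b. A difference in these 3 genes was not detectable at this depth. The ratio of their pooled CPM, TP-0903 over DMSO, had 95% intervals (exact, counting error only) of 0.180 to 13.9 for hoxc13a, 0.257 to 16.5 for hoxc13b and 0.247 to 1.60 for hoxd13a. The 4 members together reached 2.03, 2.06, 3.06 and 1.64 CPM in TP-0903 replicates 1 to 4 and 3.25, 3.88, 4.64 and 3.17 CPM in DMSO replicates 1 to 4, most of it hoxa13b. These sums did not overlap, with TP-0903 replicate 3 and DMSO replicate 4, the libraries that stood apart in msgn1, lying next to each other.

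After 4 h, all 4 members had a lower mean in TP-0903-treated embryos. Of the 2 members that passed the filter, hoxa13b and hoxd13a, both were called lower, while 0.244% of the 15953 genes tested at 4 h were called lower. Over all genes tested the median log2 fold change at 4 h was 0.0011, and over these 2 members it was -2.28. Both members were at 2.67 CPM or more in each DMSO library and at most 1.28 CPM with TP-0903. They thus passed the filter through the DMSO libraries, which favours lower values. Their shared direction and their median are therefore given as description only.

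The level of hoxd13a was the most even among the members in DMSO libraries at 4 h. The TP-0903 libraries held 1, 4, 9 and 9 counts of hoxd13a in replicates 1 to 4, or 0.182, 0.587, 1.28 and 0.953 CPM. The DMSO libraries held 39, 34, 36 and 36 counts, or 4.53, 4.56, 3.37 and 3.84 CPM. Every TP-0903 library lay below every DMSO library. The mean was 0.751 ± 0.474 CPM with TP-0903 and 4.07 ± 0.58 CPM with DMSO (SD, n = 4 each), which is -2.33 as a log2 fold change (SE 0.34, adjusted p = 0.00785 by edgeR). The call for hoxd13a held in each of the 8 fits that left out a library, with adjusted p from 0.00980 to 0.0350.

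For hoxa13b at 4 h the TP-0903 libraries held 3, 1, 7 and 11 counts in replicates 1 to 4, or 0.545, 0.147, 0.996 and 1.17 CPM. The DMSO libraries held 36, 23, 46 and 25 counts, or 4.18, 3.09, 4.30 and 2.67 CPM. Again the groups did not overlap, with TP-0903 replicate 2 the lowest library. The mean was 0.713 ± 0.460 CPM with TP-0903 and 3.56 ± 0.81 CPM with DMSO (SD, n = 4 each), which is -2.22 as a log2 fold change (SE 0.39, adjusted p = 0.0230 by edgeR). This call was lost without TP-0903 replicate 1 (adjusted p = 0.0980) and without DMSO replicate 1 (0.0791), 2 (0.0542) or 3 (0.0938), while the log2 fold change stayed between -2.62 and -1.90 over the 8 fits. It was also lost in 1 fit of all 24 libraries (adjusted p = 0.0547).

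The gene hoxc13a was listed with 1 count in the 4 TP-0903 libraries together at 4 h. That count lay in TP-0903 replicate 4 (0.106 CPM), and TP-0903 replicates 1, 2 and 3 had 0 counts. The DMSO libraries held 20, 30, 17 and 8 counts, or 2.32, 4.03, 1.59 and 0.853 CPM. The groups did not overlap, although the DMSO libraries of hoxc13a were more uneven than those of hoxa13b and hoxd13a. The pooled CPM was 59.8-fold lower with TP-0903, with a 95% interval of 10.4 to 2392 (exact, counting error only). The filter removed hoxc13a. Without the filter its log2 fold change was -5.43 (SE 0.88, adjusted p = 0.0152 by edgeR), where 0.257% of all 16361 genes were called lower. The call without the filter was lost without TP-0903 replicate 1 (adjusted p = 0.0694) or replicate 4 (adjusted p = 0.0681), and in 1 fit of all 24 libraries (adjusted p = 0.0519).

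Its copy hoxc13b had an uneven level at 4 h as well. The TP-0903 libraries held 1, 2, 0 and 6 counts of hoxc13b in replicates 1 to 4, or 0.182, 0.293, 0 and 0.636 CPM. The DMSO libraries held 17, 25, 3 and 10 counts, or 1.97, 3.35, 0.281 and 1.07 CPM. The groups overlapped, because DMSO replicate 3 lay below TP-0903 replicates 2 and 4. Without the filter the log2 fold change was -2.30 (SE 0.82, adjusted p = 0.391 by edgeR), and the difference did not pass. The pooled CPM was 4.87-fold lower with TP-0903 (95% interval 2.39 to 11.2, exact, counting error only).

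At 4 h, 3 of the 4 listed members (hoxa13b, hoxc13a and hoxd13a) had every TP-0903 library below every DMSO library, and this held for 2.88% of all 16361 genes. An exact two-sided permutation test of the mean CPM gave p = 0.0286 for each of these 3, the smallest p that 4 libraries against 4 allow, and p = 0.0857 for hoxc13b. In all, 12 such tests were run, for 4 members at 3 times. The 4 members together reached 0.908, 1.03, 2.28 and 2.86 CPM in TP-0903 replicates 1 to 4 and 13.0, 15.03, 9.54 and 8.43 CPM in DMSO replicates 1 to 4.

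Among the TP-0903 libraries at 4 h, replicates 1 and 2 had the lower sums. The same 2 libraries had 1011 and 1020 CPM of cyp26a1, which encodes the enzyme that degrades retinoic acid, against 557 and 485 CPM in TP-0903 replicates 3 and 4. The DMSO libraries held between 39.6 and 48.1 CPM of cyp26a1. The 15 tailbud and presomitic mesoderm markers listed at all times summed to 633, 585, 847 and 858 CPM in TP-0903 replicates 1 to 4 and to 829, 777, 1005 and 1019 CPM in DMSO replicates 1 to 4. The 6 trunk muscle markers summed to 1163, 1329, 734 and 726 CPM in TP-0903 replicates 1 to 4 and to 1025, 897, 580.0 and 668 CPM in DMSO replicates 1 to 4. In both treatments replicates 1 and 2 were thus the lower ones in tailbud markers and the higher ones in muscle markers. The sums of the members did not go the same way in both treatments. With DMSO they were higher in replicates 1 and 2 (13.0 and 15.03 CPM) than in replicates 3 and 4 (9.54 and 8.43 CPM). The part of these marker differences in the result was not tested.

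Across the 13 paralogue groups, the genes called lower at 4 h lay in groups 10 to 13. In group 12, 3 of 3 tested genes were called lower, with a median log2 fold change of -3.91, and the values for hoxc12b, hoxc12a and hoxd12a were -4.25 (SE 0.55), -3.91 (0.35) and -1.69 (0.24). Of these 3 genes, 2 were under 1 CPM in each TP-0903 library at 4 h and 0 in each DMSO library. Genes of group 12 may thus have passed the filter through the DMSO libraries alone, so this count and median are description only. In group 11, 5 of 5 were called lower (median -1.55), led by hoxc11a at -2.90 (SE 0.33). In group 10, 3 of 4 were called lower (median -0.81), with hoxd10a at -1.18 (SE 0.18), and hoxb10a at -0.053 did not pass. In group 9, 0 of 5 tested genes were called by edgeR, although 3 had an unadjusted p under 0.05, and the median was -0.16. In groups 1 to 8, 9 of 25 tested genes were called higher and 0 lower, with a median of 0.80, led by hoxb1a at 1.73 (SE 0.20), while 0.495% of all genes tested were called higher. The 39 genes called lower at 4 h, 0.244% of the 15953 tested, hold 13 Hox genes of groups 10 to 13. In groups 9 to 13, 19 genes were tested. The 13 include genes of groups 12 and 13 that passed, or may have passed, the filter through the DMSO libraries. This count is therefore description only. Earlier results of these data had already shown posterior Hox groups as lower.

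**Figure D2:**
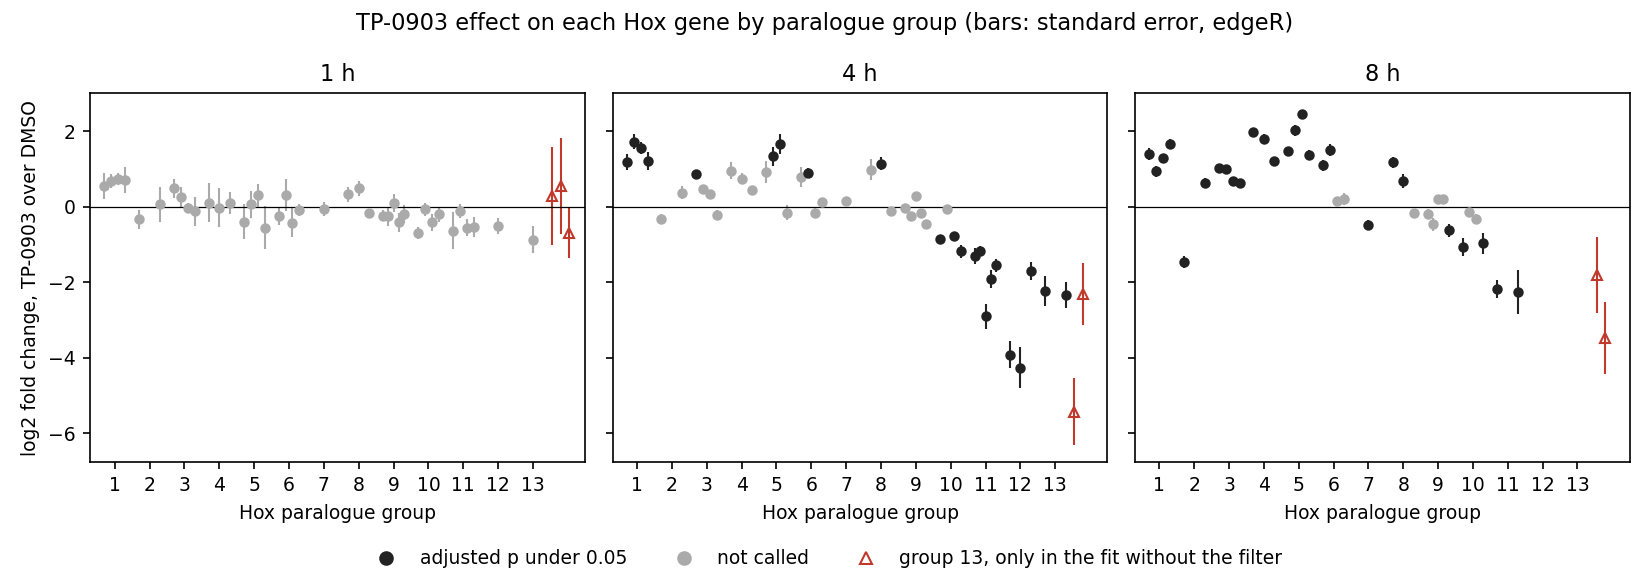
Each point is a Hox gene, placed by its paralogue group (x axis) and its log2 fold change of TP-0903 over DMSO (y axis, bars are standard errors), at 1, 4 and 8 h. Black points passed an adjusted p of 0.05 by edgeR, grey points did not, and open triangles are members fitted only without the filter, with hoxc13a at 4 h the lowest at -5.43; members with 0 counts in a whole group are left out.

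**Figure D3:**
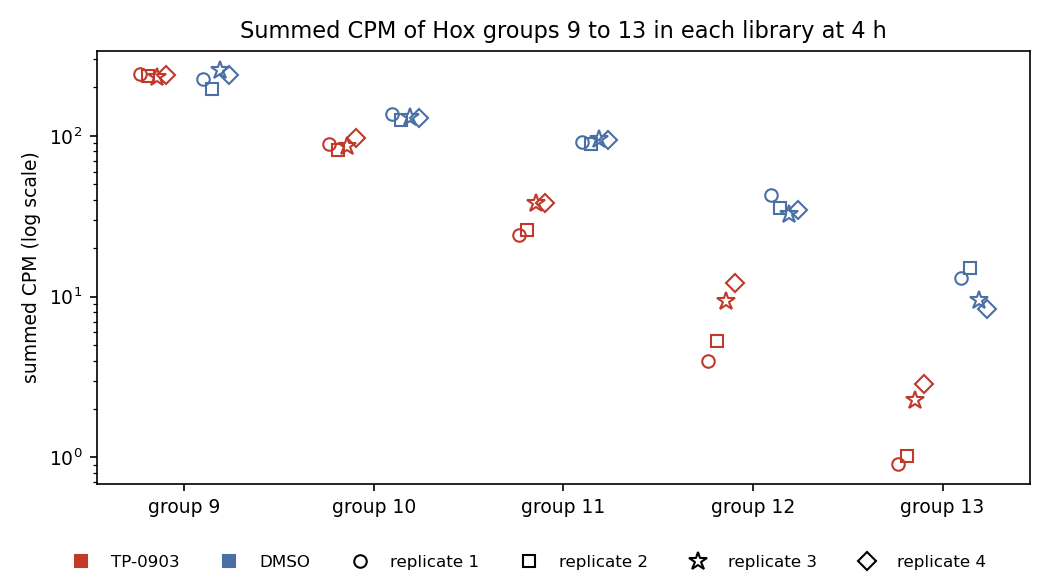
Summed CPM (log axis) of the listed Hox genes of groups 9, 10, 11, 12 and 13 in each library at 4 h, TP-0903 in red left of DMSO in blue, with a symbol for each replicate. In group 9 the libraries overlap at 231 to 243 CPM with TP-0903 and 195 to 255 CPM with DMSO, and in group 13 they lie at 0.908 to 2.86 CPM and at 8.43 to 15.03 CPM.

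A group 13 gene lies by definition at the end of its cluster. In RefSeq's order of protein-coding genes (assembly GRCz12tu, used for names only), hoxa13b lies between hoxa11b and hibadhb, hoxc13a between hoxc12a and calcoco1a, hoxc13b between hoxc12b and zgc:174719, and hoxd13a between hoxd12a and evx2. The neighbour on the Hox side was called lower at 4 h in each of the 4 clusters, as were 0.244% of all genes tested. For hoxa11b the value was -1.17 (SE 0.13, adjusted p = 0.00141 by edgeR). These neighbours were already counted above with their paralogue groups. Some of hoxc12a, hoxc12b and hoxd12a may have passed the filter through the DMSO libraries alone. The shared direction of the neighbours is therefore description only. On the other side of the members, hibadhb lay at 0.11 (SE 0.09, adjusted p = 0.709 by edgeR) and calcoco1a at -0.44 (SE 0.17, adjusted p = 0.458), neither past the threshold. The unadjusted p of calcoco1a by edgeR was 0.0264. The gene evx2, a homeobox gene next to the Hoxd cluster, did not pass the filter at 4 h, and zgc:174719 was not analysed here. The hibadhb and calcoco1a values were looked up after those of the members had been seen. Of the 2 Evx genes tested at 4 h, eve1 was at -0.33 and evx1 at -0.13, and 0 were called by edgeR or had an unadjusted p under 0.05.

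Among regulators known to act on posterior Hox genes, the values went both ways at 4 h. Of 10 tested records, 2 were called higher and 1 lower. A value below 0 was found for 7 of the 10 and an unadjusted p under 0.05 for 6, with a median of -0.084. The lowest value, -0.94, was not called. The higher ones were cyp26a1 (log2 fold change 4.10, SE 0.25) and fgf8a, a tailbud growth factor (0.55, SE 0.09), and the lower one was aldh1a2 (-0.64, SE 0.12), which encodes an enzyme that makes retinoic acid. The caudal gene cdx4, an activator of posterior Hox genes, was at -0.051 (SE 0.15, adjusted p = 0.932 by edgeR), and wnt3a at -0.065 (SE 0.14, adjusted p = 0.900), neither past the threshold. These 2 uncalled genes were chosen after their values were seen and do not stand for the list. Of 19 tested records of tailbud and presomitic mesoderm markers, 1 was called higher (fgf8a) and 1 lower, msgn1 (log2 fold change -1.58, SE 0.26, adjusted p = 0.0160), and 18 had a value below 0, with a median of -0.33. An unadjusted p under 0.05 was found for 10 of these 19 records, and for 1505 of all 15953 genes tested. Among 6 trunk muscle markers 0 were called by edgeR, 1 had an unadjusted p under 0.05, and the median was 0.22.

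Some of the tailbud and presomitic mesoderm markers were near 0 at 8 h. The genes her1 and her7, oscillating genes of the presomitic mesoderm, were at most 0.241 and 0.360 CPM with TP-0903 and 2.20 and 1.21 CPM with DMSO. The TP-0903 libraries had 0 counts of her1 in replicates 1 and 3, and the DMSO libraries had 0 counts of her1 in replicates 2 and 4. In DMSO replicate 3, however, msgn1 reached 5.07 CPM, against 0.111 to 0.481 CPM in the TP-0903 libraries and 0.327 to 0.657 CPM in the other DMSO libraries, and the early mesoderm gene tbx16 reached 6.39 CPM, against 1.93 to 2.65 CPM with TP-0903 and 1.05 to 2.29 CPM in the other DMSO libraries. These genes were chosen from the marker list after their values were seen. The whole list of 15 summed to between 238 and 270 CPM with TP-0903 and between 231 and 276 CPM with DMSO, and DMSO replicate 3 was the 1 library of 8 with all 15 markers at 1 CPM or more. Of 10 markers tested at 8 h, 3 were called higher and 2 lower. For the members, the fold differences and calls against DMSO at 8 h are given below with and without this library. Those of the neighbouring Hox genes and the regulators are given with all 8 libraries only.

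After 8 h the members were nearly absent from TP-0903 libraries, and most of their DMSO counts came from replicate 3. The gene hoxc13a had 0 counts in each of the 4 TP-0903 libraries and 1, 3, 33 and 2 counts in DMSO replicates 1 to 4, or 0.131, 0.345, 3.63 and 0.218 CPM. A count of 0 over the TP-0903 group allows up to 3 counts, or 0.0926 CPM. Against that limit the pooled CPM of hoxc13a was at least 12.2-fold lower with TP-0903, and at least 2.54-fold lower without DMSO replicate 3. These folds leave out the counting error of the DMSO counts, and with it the exact 95% interval of the fold began at 9.45, or at 1.497 without DMSO replicate 3. The gene hoxa13b also had 0 counts in each TP-0903 library, and 0, 1, 13 and 2 counts in the DMSO libraries, or 0, 0.115, 1.43 and 0.218 CPM. Against the same limit it was at least 4.999-fold lower with TP-0903, and the exact 95% interval of the fold began at 3.61. Without DMSO replicate 3 the DMSO libraries held 3 counts of hoxa13b, at the limit itself, and no fold can be given.

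The gene hoxd13a had 0, 0, 2 and 0 counts in TP-0903 replicates 1 to 4 and 3, 4, 17 and 5 counts in DMSO replicates 1 to 4, or 0.394, 0.460, 1.87 and 0.545 CPM in the DMSO libraries. The single TP-0903 library with counts, replicate 3, had 0.240 CPM, below each DMSO library. The pooled CPM of hoxd13a was 13.6-fold lower with TP-0903 (95% interval 3.44 to 118), and without DMSO replicate 3 it was 7.63-fold lower (95% interval 1.70 to 70.2, exact, counting error only). The gene hoxc13b was the member with the most counts in TP-0903 libraries, 1, 0, 1 and 3, against 3, 0, 15 and 2 with DMSO, and its groups overlapped. The pooled CPM of hoxc13b was 3.75-fold lower with TP-0903 (95% interval 1.37 to 12.8, exact, counting error only). Without DMSO replicate 3 it was 1.27-fold lower, with an interval of 0.293 to 5.52 that includes no difference. The first interval leaves out the spread between libraries, and 15 of the 20 DMSO counts lay in replicate 3. A difference in hoxc13b was not shown (adjusted p = 0.203 by edgeR without the filter).

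No member passed the filter at 8 h. In the fit without it, hoxd13a (log2 fold change -3.47, SE 0.95, adjusted p = 0.0138 by edgeR) and hoxc13a (adjusted p = 0.0306) were called lower, and hoxa13b (adjusted p = 0.0601) and hoxc13b (adjusted p = 0.203) were not. In that fit 12.8% of 18984 genes were called lower. Without DMSO replicate 3, the adjusted p was 0.0545 for hoxd13a and 0.0615 for hoxc13a, and 0 members were called by edgeR, with 2 at an unadjusted p under 0.05. The call for hoxc13a was also lost without TP-0903 replicate 1 (adjusted p = 0.0574), 2 (0.0579) or 3 (0.0564), and it held in 4 of 8 such fits. The call for hoxd13a held in 7 of 8, and hoxa13b was called in 1 of 8, without DMSO replicate 1 (adjusted p = 0.0330). At 8 h hoxc13a and hoxd13a had every TP-0903 library below every DMSO library, as did 12.6% of all genes. An exact two-sided permutation test of the mean CPM gave p = 0.0286 for each of these 2 genes, 0.143 for hoxa13b and 0.371 for hoxc13b.

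**Figure D4:**
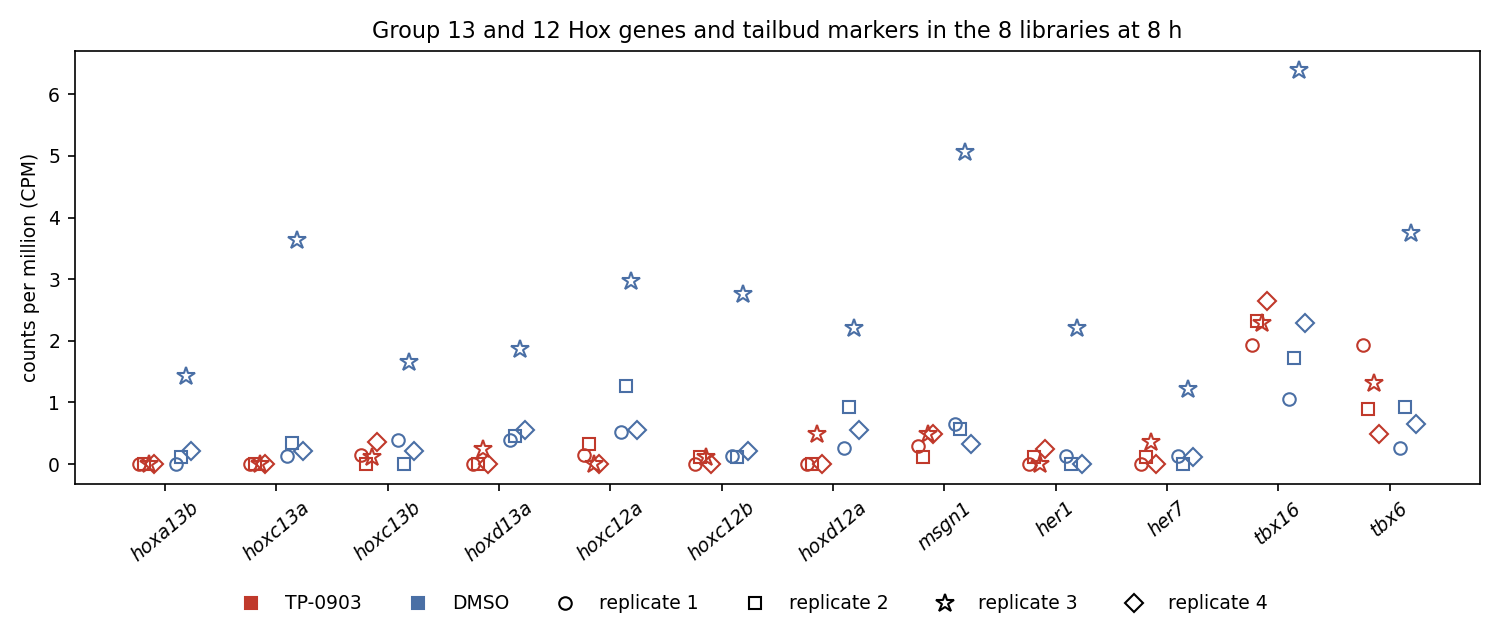
CPM (linear axis) of the 4 members, the 3 group 12 Hox genes and 5 tailbud and presomitic mesoderm markers in each of the 8 libraries at 8 h, TP-0903 in red left of DMSO in blue, with a symbol for each replicate. DMSO replicate 3, the star, is the highest library for all 12 genes, with 3.63 CPM of hoxc13a and 6.39 CPM of tbx16, while every other library lies under 1 CPM for the 4 members.

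Some neighbouring posterior genes remained measurable at 8 h. Of 5 listed group 11 genes the filter left 2, and at least 3 of the 5 were under 1 CPM in each TP-0903 library. The 2 tested genes may have passed the filter through the DMSO libraries, so their shared direction is description only. In group 11, 2 of 2 tested genes were called lower, hoxd11a (log2 fold change -2.25, SE 0.59) and hoxa11b (-2.16, SE 0.24). In group 10, 2 of 4 were called lower, hoxa10b (-1.06, SE 0.23) and hoxd10a (-0.97, SE 0.28). The 3 genes of group 12, like those of group 13, did not pass the filter. In group 9, 1 of 5 was called lower, and in groups 1 to 8, 20 of 25 were called higher and 2 lower. Of 7 regulators tested at 8 h, 2 were called higher and 3 lower. Among them, cdx4 was called lower at 8 h (log2 fold change -2.31, SE 0.21, adjusted p = 2.3e-06 by edgeR), with 2.65 to 3.96 CPM with TP-0903 and 10.5 to 19.2 CPM with DMSO, and cyp26a1 was called higher (2.73, SE 0.20). The TP-0903 effect on cdx4, 8 h minus 4 h, differed by -2.24 on the log2 scale (SE 0.28, adjusted p = 5.4e-05 by edgeR). At 8 h, 13.5% of all 17478 genes tested were called lower and 15.4% higher.

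Without treatment, the members did not follow the same course. With DMSO, hoxa13b averaged 2.92 ± 0.83 CPM at 1 h, 3.56 ± 0.81 CPM at 4 h and 0.441 ± 0.666 CPM at 8 h (SD, n = 4 each). With DMSO, hoxd13a averaged 0.568 ± 0.295 CPM at 1 h, 4.07 ± 0.58 CPM at 4 h and 0.818 ± 0.706 CPM at 8 h. Thus hoxa13b was already present at 14 hpf, while hoxd13a was low then and as high as hoxa13b at 17 hpf. In a fit of the 16 libraries at 1 h and 4 h, hoxd13a was called higher at 4 h than at 1 h with DMSO (log2 fold change 2.89, SE 0.45, adjusted p = 3.0e-04 by edgeR), where 10.3% of genes were called higher, and hoxa13b was not (0.30, SE 0.35, adjusted p = 0.592). Without the filter, hoxc13a (4.25, SE 0.86, adjusted p = 0.00260) and hoxc13b (3.83, SE 1.09, adjusted p = 0.0223) were called higher as well. The tables were deposited separately for each time, so time and any difference between tables cannot be told apart.

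With TP-0903, 0 members were called between 1 h and 4 h. The log2 fold change of hoxd13a, 4 h over 1 h, was 1.24 (SE 0.54, adjusted p = 0.119 by edgeR), and that of hoxa13b was -1.05 (SE 0.45, adjusted p = 0.107), both with an unadjusted p under 0.05. With DESeq2 and without the filter the count was also 0, while 20.1% of genes were called in either direction with the filter and without it. The difference of the TP-0903 effect, 4 h minus 1 h, was -1.65 for hoxd13a (SE 0.77) and -1.35 for hoxa13b (SE 0.57), with an adjusted p of 1.00 for both by edgeR and an unadjusted p under 0.05. In that test 0% of 16283 genes passed, and 343 had an unadjusted p under 0.05. A larger effect at 4 h than at 1 h was therefore neither shown nor excluded for either gene.

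In both treatments hoxa13b and hoxd13a were lower at 8 h than at 4 h. The 8 h data list 18984 genes, against 16361 at 4 h. Time and any other difference between these 2 sets of data cannot be told apart. With TP-0903 the log2 fold change, 8 h over 4 h, was -3.38 for hoxd13a (SE 0.92, adjusted p = 0.00349 by edgeR), and hoxa13b was called lower too (adjusted p = 0.00456), with 0 counts at 8 h. With DMSO it was -2.92 for hoxa13b (SE 0.56, adjusted p = 4.3e-04) and -2.26 for hoxd13a (SE 0.40, adjusted p = 1.3e-04). Leaving out each of the 16 libraries in turn moved the DMSO change of hoxa13b between -4.76 and -2.57. For hoxd13a it ran from -3.07 to -2.06, and both genes were called lower in all 16 fits. Of 15913 genes tested, 32.7% were called lower with TP-0903 and 23.3% with DMSO. The lower level at 8 h was not particular to these members. With DMSO, 14 of 15 tailbud and presomitic mesoderm markers were called lower (median -2.90), as were 3 of 3 group 12 and 5 of 5 group 11 genes. With TP-0903, 13 of the 15 markers were called lower and 1 higher, and 1 of 3 group 12 and 5 of 5 group 11 genes were called lower. For hoxc13a the DMSO change was -0.92 (SE 0.69, adjusted p = 0.280), and without DMSO replicate 3 at 8 h it was -3.10 (SE 0.65, adjusted p = 0.00125). The difference of the TP-0903 effect, 8 h minus 4 h, passed for 0 of 3 tested members by edgeR, and 0 had an unadjusted p under 0.05, where 14.2% of genes passed. Its SE was 1.83 for hoxa13b, 1.68 for hoxc13a and 1.04 for hoxd13a. With TP-0903 at 8 h, hoxa13b and hoxc13a had 0 counts. A changed effect was therefore neither shown nor excluded for these members. The comparisons of treatment and of time share libraries, so their values are set side by side and not counted as separate support.

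Levels were compared between members on the deposited FPKM scale, which divides by gene length. At 1 h hoxa13b was the highest member, at 0.996 ± 0.402 FPKM with TP-0903 and 1.90 ± 0.57 FPKM with DMSO (SD, n = 4 each), and its lowest library lay above the highest library of each other member in the same group. At 4 h the order with TP-0903 was hoxa13b at 0.459 ± 0.295 FPKM, hoxd13a at 0.443 ± 0.282 FPKM, hoxc13b at 0.176 ± 0.169 FPKM and hoxc13a at 0.0224 ± 0.0449 FPKM. With DMSO it was hoxd13a at 2.41 ± 0.33 FPKM, hoxa13b at 2.30 ± 0.53 FPKM, hoxc13a at 1.89 ± 1.16 FPKM and hoxc13b at 1.07 ± 0.84 FPKM. In both groups the libraries of each gene at 4 h overlapped with those of the next, so no step of either order exceeded the spread. The members hoxa13b and hoxd13a exchanged places between the 2 orders, as did hoxc13a and hoxc13b. At 8 h the order rested on DMSO replicate 3, with hoxc13a highest at 0.922 ± 1.45 FPKM in DMSO, and hoxc13b at 0.102 ± 0.098 FPKM was highest with TP-0903.

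Across the 24 libraries, the profile most like the mean of the members, by Pearson's r of log2(CPM + 0.5) over 15965 genes, was that of hoxc12b (r = 0.94), followed by hoxc12a (0.93), hoxc11b (0.85), hoxc11a (0.84) and frem2a (0.82), which encodes an extracellular matrix protein of epithelia. For single members the nearest gene was hoxa10b for hoxa13b (r = 0.91), hoxc12b for hoxc13a (0.92) and for hoxc13b (0.82), and hoxc12a for hoxd13a (0.92). Among the members themselves r ran from 0.30 between hoxa13b and hoxc13b to 0.84 between hoxc13a and hoxc13b. The libraries share treatments, times and depth, and these values describe them without a test.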

How the data were processed

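RNA from 24 libraries of whole embryos was ribosome-depleted, prepared as stranded libraries and sequenced as single reads by the authors. According to the study's methods, the authors aligned reads to zv9 with Novoalign, discarded repetitive or low-quality alignments and counted alignments per Ensembl gene with USeq. Reads shared by near-identical gene copies may thus be lost. The deposited counts are not normalized, and the deposited FPKM values are the same counts divided by the length of the gene and the depth of the library. Deposited log2 fold changes and the deposited score of their false discovery rate hold the authors' own DESeq2 comparison and were not used.

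Groups came from the labels. Counts were tested in R 4.3.3 with edgeR 4.0.16 (filterByExpr, TMM, glmQLFit and glmQLFTest), each time apart, and on the 16 libraries of 2 times for time contrasts. The standard error is the absolute log2 fold change divided by the square root of F. Exact tests and intervals used scipy 1.17.1. Alternatives were RLE size factors, DESeq2 1.42.0 without a prior, limma 3.58.1 (voom), no filter, the replicate number as a block, 1 fit of 24 libraries, library sizes without TMM factors and each library left out. No filter combined with libraries left out, and no filter for time contrasts, were added after seeing the data.

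The members and lists were chosen with earlier results of these data known. The text names the members, at most the 3 largest called changes of a list and a comparison, the 5 most similar profiles and the nearest to each member. Genes named outside this rule (her1, her7, tbx16, hibadhb, calcoco1a, eve1, evx1, evx2, hoxb10a, cdx4 and wnt3a where not called) were chosen after their values were seen. Lists of notochord and floor plate (2 genes) and blood (2 genes) had 0 calls by edgeR at 4 h. The symbol wnt8a stands for 2 records at 1 h and 4 h. No 2 replicate libraries agreed within sampling noise. The lowest chi-square per gene was 1.67, for TP-0903 replicates 2 and 4 at 1 h, while TP-0903 replicates 2 and 3 at 1 h gave 64.3. These values do not exclude that some libraries had a shared source. Same-numbered replicates of TP-0903 and DMSO were not treated as pairs. The edgeR fits at each time and of the differences of the TP-0903 effect were checked on simulated counts of genes with higher levels than the members. No sequences are shown.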

Additional observations from a re-analysis of the deposited data

Results flagged for a closer look

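In DMSO libraries at 8 h, replicate 3 lay far above the other 3 for hoxa13b, hoxc13a and hoxd13a and for the summed level of the 4 members. The distance from it to the next library, divided by the full range over the 4 libraries, was 0.848 for hoxa13b, 0.939 for hoxc13a, 0.898 for hoxd13a and 0.964 for the sum, which was 8.59 CPM in replicate 3 against 0.920, 0.920 and 1.20 CPM in replicates 1, 2 and 4. The same library held 5.07 CPM of msgn1. In 3 further groups a library was set apart at 1.00 because the other 3 had 0 counts. These were hoxd13a in TP-0903 replicate 3 at 8 h, with 2 counts, hoxc13a in TP-0903 replicate 4 at 4 h, with 1 count, and hoxc13b in DMSO replicate 1 at 1 h, with 2 counts. Of 30 groups of 4 libraries examined, 7 had such a library. For independent, continuous values about 1.5 would be found by chance, but counts this low, a sum that contains the members and 1 library behind 4 of the 7 make that number no measure of chance here.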

How the results depend on the processing

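Low counts limit every result on the group 13 Hox genes. At 4 h, where 2 members were called, 1 fit of all 24 libraries called 1, and leaving out each library in turn gave 1 to 3 with the filter and 1 to 3 without it. At 8 h, where 0 members passed the filter and were called, DESeq2, edgeR without the filter and 1 fit of all 24 libraries each called 2, and without the filter leaving out each library in turn gave 0 to 3, with 0 without DMSO replicate 3. With DMSO between 1 h and 4 h, where 1 member was called, DESeq2 called 3, edgeR without the filter 3 and 1 fit of all 24 libraries 2, and leaving out each library in turn gave 1 to 2. With DMSO between 4 h and 8 h leaving out a library gave 2 to 3. The difference of the TP-0903 effect for hoxc13a, 8 h minus 4 h, rests on 1 count with TP-0903 at 4 h and 0 counts at 8 h. The data therefore fix neither its size nor its sign. It was -0.79 in the main fit and turned to 0.14 with DESeq2 and to 1.39 without DMSO replicate 3 at 8 h. Without TP-0903 replicate 4 at 4 h it could not be given, because no TP-0903 library then held a count. The cause of these changes was not tested, beyond the number of libraries or genes that each setting leaves. The effect on hoxd13a at 4 h kept its call in all 22 alternatives, and that on hoxa13b in 13 of 22, with no change of direction. These alternatives hold the 8 fits that left out a library both with the filter and without it. Each way the call held in 8 of 8 for hoxd13a and in 4 of 8 for hoxa13b, so they are not separate support. Libraries with the same replicate number were not treated as pairs, since the correlations of their deviations were not above 0.1 for each number. They ran from 0.079 to 0.44 at 4 h, where 3 of 4 libraries matched their own number best, from -0.73 to 0.60 at 1 h and from -0.084 to 0.057 at 8 h, which leaves a shared source of same-numbered libraries at 4 h undecided. With the replicate number as a block 2 members were called at 4 h, hoxa13b (adjusted p = 0.0176 by edgeR) and hoxd13a (adjusted p = 0.0111), and the count of members called did not change in any comparison.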
